A study of Rattus norvegicus with 6 samples.

Results

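The cornified envelope is the cross-linked protein shell that replaces the plasma membrane of a keratinocyte at the end of its differentiation. Its genes were followed here in soft tissue healed around a titanium alloy dental implant and in oral mucosa healed over an empty tooth socket. The 10 genes were chosen by name from those that encode envelope precursors and their cross-linking enzymes: Sprr1a, Sprr1b, Sprr2d, Sprr3, Loricrin, Ivl, Scel, Tgm1, Tgm3 and Krtdap. All 10 had a probe set annotated with that symbol alone, 11 probe sets in total, out of 14217 genes with such a probe set on the array. The brightest probe set over all 6 arrays stood for each gene, and Krtdap was the only one with another.

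Both groups came from male rats of the outbred Sprague-Dawley stock, which had lost both upper first molars by extraction when 4 weeks old. The left socket received an implant and gave the peri-implant soft tissue, and the right socket was left to heal and gave the mucosal tissue. Both were dissected 4 weeks later, 3 arrays per group, so side of the mouth and tissue cannot be told apart. No untreated gingiva was among the samples, and the sources do not say whether the samples of a group, or samples with the same number, came from separate rats. P-values therefore measure the spread between these arrays, which might reflect technical variation alone. Keratinocyte identity was plain in both tissues, with Krt5 at 15.18 and 15.69 and Krt14 at 15.71 and 15.95 in peri-implant and mucosal tissue. All levels are signals on a log2 scale, on which 1 unit is a doubling. Array medians lay between 6.62 and 6.78.

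As background, envelope assembly begins when transglutaminases join involucrin and other scaffold proteins beneath the membrane. Loricrin, the main bulk protein of the envelope in epidermis, and the small proline-rich (SPRR) proteins, which bridge other precursors, are added later. SPRR proteins are abundant in oral and other internal stratified epithelia, and several of them are known to be induced by stress and injury. Fewer keratinocytes and less RNA of a gene per keratinocyte cannot be told apart in whole tissue.

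In RefSeq's GRCr8 annotation of the rat, 6 of the 10 genes lie on chromosome 2 in the epidermal differentiation complex, a cluster of genes expressed late in keratinocyte differentiation. From Loricrin to Ivl this stretch holds 25 annotated genes, the 6 included, and 6 of the other 19 carry Sprr2 names. None of these 19 had a single-symbol probe set in the annotation used here. Whether the probe set named Sprr2d also reads its near-identical neighbours is unknown, so its signal is uncertain as that of 1 gene. Sprr1a also has Sprr1b among its older synonyms in RefSeq. Scel and Tgm1 lie on chromosome 15, Tgm3 on 3 and Krtdap on 1.

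RefSeq upstream windows were at hand for 9 of the 10 genes, Sprr3 being without one in the table used. The 250 bases before the annotated start are shown for the 2 Sprr1 paralogs, which encode close relatives but differed in their calls, for Loricrin, and for 3 other genes that passed the test below. Capitals mark the AP-1 motif TGANTCA, bound by Fos and Jun proteins, and the TATA box TATAAA, found on either strand.

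Sprr1a, chr2:180752626-180752875, minus strand: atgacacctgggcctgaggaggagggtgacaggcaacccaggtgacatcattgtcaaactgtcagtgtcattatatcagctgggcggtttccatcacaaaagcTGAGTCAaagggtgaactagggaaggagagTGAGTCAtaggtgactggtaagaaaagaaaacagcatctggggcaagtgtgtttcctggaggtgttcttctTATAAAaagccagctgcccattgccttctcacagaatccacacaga

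Sprr1b, chr2:180706356-180706605, minus strand: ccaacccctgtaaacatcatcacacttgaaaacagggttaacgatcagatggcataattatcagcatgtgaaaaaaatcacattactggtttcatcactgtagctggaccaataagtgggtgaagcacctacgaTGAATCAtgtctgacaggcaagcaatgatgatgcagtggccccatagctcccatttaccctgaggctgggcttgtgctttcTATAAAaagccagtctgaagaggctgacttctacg

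Loricrin, chr2:180256573-180256822, minus strand: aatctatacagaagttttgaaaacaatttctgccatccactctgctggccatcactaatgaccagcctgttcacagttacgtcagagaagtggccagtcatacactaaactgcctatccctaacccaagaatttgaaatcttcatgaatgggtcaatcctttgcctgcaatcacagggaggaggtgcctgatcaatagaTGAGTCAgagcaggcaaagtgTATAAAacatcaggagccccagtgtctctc

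Sprr2d, chr2:180566283-180566532, minus strand: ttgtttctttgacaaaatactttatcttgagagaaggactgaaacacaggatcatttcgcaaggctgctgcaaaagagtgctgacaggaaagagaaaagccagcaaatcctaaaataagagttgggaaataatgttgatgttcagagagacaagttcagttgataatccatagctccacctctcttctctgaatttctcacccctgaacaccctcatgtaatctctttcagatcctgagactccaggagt

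Scel, chr15:86754382-86754631, plus strand: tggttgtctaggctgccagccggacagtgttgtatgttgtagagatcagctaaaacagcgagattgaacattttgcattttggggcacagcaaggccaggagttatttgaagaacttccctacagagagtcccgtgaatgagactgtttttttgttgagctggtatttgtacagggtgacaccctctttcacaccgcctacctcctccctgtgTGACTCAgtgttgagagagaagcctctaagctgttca

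Tgm3, chr3:137681559-137681808, plus strand: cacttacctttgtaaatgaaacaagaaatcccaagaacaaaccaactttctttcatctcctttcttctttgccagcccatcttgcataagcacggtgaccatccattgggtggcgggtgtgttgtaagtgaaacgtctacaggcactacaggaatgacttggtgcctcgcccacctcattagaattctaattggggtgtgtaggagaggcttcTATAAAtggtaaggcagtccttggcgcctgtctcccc

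The AP-1 motif stood in 5 of the 9 windows, those of Sprr1a, Sprr1b, Loricrin, Scel and Krtdap, and in 6.34% of the 33469 rat windows of that length. Sprr1a held it at 2 places, 147 and 117 bases before the start, and Sprr1b at 1 place, 116 bases before it. The TATA box stood in 5 of 9 windows, those of Sprr1a, Sprr1b, Loricrin, Tgm3 and Krtdap, and in 12.9% of all. The box CACCC of Klf factors stood in 8 of 9 and 49.2% of all, and the ETS core GGAA in 7 of 9 and 93.2% of all. Neither AP-1 nor TATA was found in the windows of Sprr2d, Tgm1 and Ivl. The windows of Tgm1 and Ivl end at a start site 1365 and 8068 bases inside the annotated gene, so they may not cover its outermost promoter. For Scel and Krtdap the start site lies 37 and 18 bases inside the annotated gene. The AP-1 motif of Scel, at -37 to -31 from its start site, thus lies within the annotated gene. These matches describe letters only and were not tied to the signals below.

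Across the 9 members that could be tested, Sprr2d, Sprr3 and Scel were higher in peri-implant tissue and Sprr1b and Tgm3 were lower. Sprr1a, Loricrin, Krtdap and Tgm1 did not pass the test. Ivl was too dim to be tested. The test was limma's moderated test with Benjamini-Hochberg adjustment over 18625 probe sets, with a threshold of 0.05. Among all 10585 genes tested 26.1% passed, 15.2% higher and 11% lower, and the members' 5 of 9 are read against that share. All 9 lay at percentile 98.74 or above by mean signal, so that share is not one of equally bright genes. The members were also chosen with earlier results of these data known. The members' differences, peri-implant minus mucosal, ran from -0.75 to 1.14 with a median of -0.22, where the median over all genes tested was 0.03. The groups did not overlap for 6 of the 9 members, against 41.9% of all genes.

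**Figure D1:**
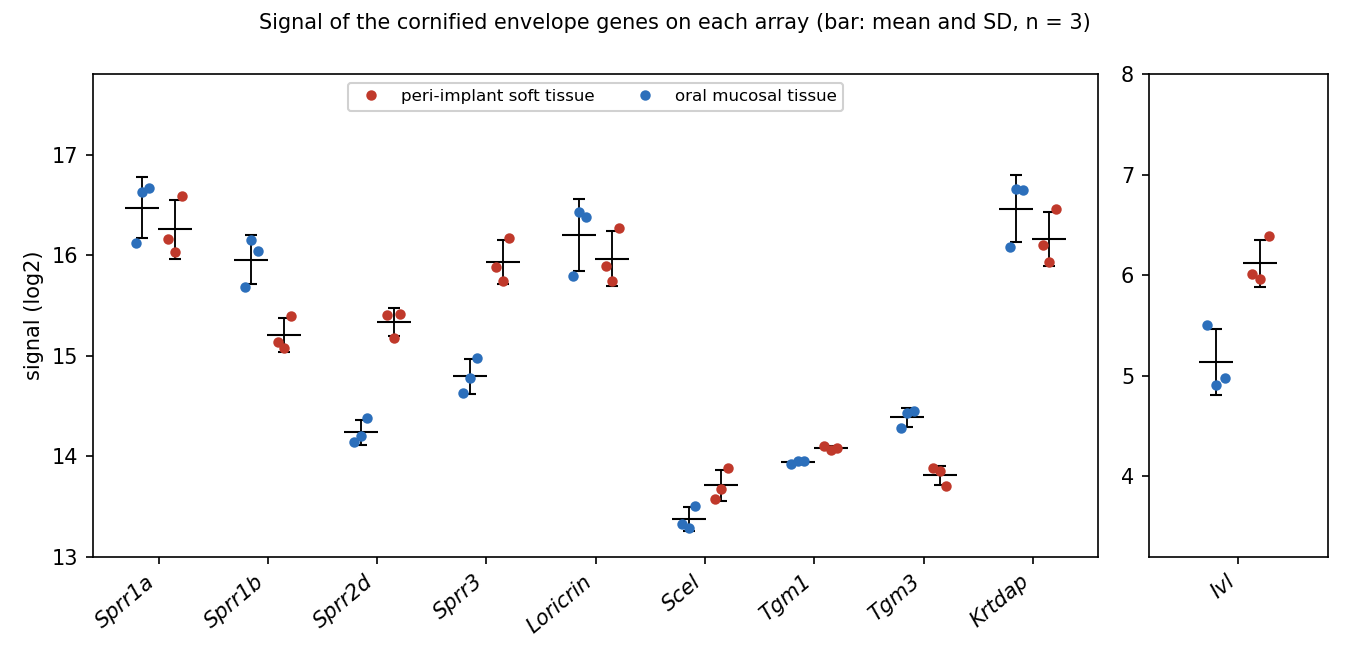
Log2 signal of each of the 10 genes (x axis) on the 3 peri-implant (red) and 3 mucosal (blue) arrays, with the mean and SD of each group as black bars; Ivl has its own axis. Sprr2d and Sprr3 are higher and Sprr1b and Tgm3 lower on all 3 peri-implant arrays, while the groups overlap for Sprr1a, Loricrin and Krtdap.

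Among the SPRR genes, which lie in the same stretch of chromosome 2, the calls went in different directions. Sprr3, a small proline-rich protein of oral and esophageal epithelium, read 15.88, 15.74 and 16.17 on peri-implant arrays 1 to 3 and 14.63, 14.78 and 14.98 on the mucosal ones. Every peri-implant value lay above every mucosal value, a 2.20-fold difference (SE 0.13 on the log2 scale, limma adjusted p = 2.73e-05). Sprr2d read 15.41, 15.18 and 15.42 against 14.14, 14.20 and 14.38. Its groups were likewise apart, by 2.14-fold (SE 0.10, limma adjusted p = 4.87e-06).

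Sprr1b went the other way. It read 15.14, 15.08 and 15.40 in peri-implant tissue and 15.68, 16.15 and 16.04 in mucosa, with no overlap. It fell by 0.75 (SE 0.14), or 1.68-fold (limma adjusted p = 0.00132). Its paralog Sprr1a read 16.16, 16.03 and 16.59 against 16.12, 16.63 and 16.67. These ranges overlapped almost fully, and the difference of -0.22 (SE 0.18) did not pass (limma adjusted p = 0.427). Under quantile normalisation it was 0.0019. That method gives equal ranks equal values, and Sprr1a ranked 2 to 6 on every array, so little difference could remain. Leaving out 1 array at a time, the difference lay between -0.39, without mucosal array 1, and -0.10, without peri-implant array 2. Since Sprr1a lay close to the highest signal of every array, its change is not set against that of Sprr1b.

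Loricrin, the glycine-rich bulk protein, read 15.89, 15.74 and 16.27 in peri-implant tissue and 15.79, 16.43 and 16.38 in mucosa. The lowest mucosal array sat within the peri-implant range, and the difference of -0.23 (SE 0.18) did not pass (limma adjusted p = 0.396). It was -0.44 without that array, mucosal array 1 (limma adjusted p = 0.0577), and -0.12 without peri-implant array 2 or mucosal array 2. Under quantile normalisation the difference was -0.05 (limma adjusted p = 0.458). Ivl, which encodes the scaffold protein involucrin, was dim. It read 6.01, 5.96 and 6.39 against 5.51, 4.91 and 4.98, with a mean of 5.63 just below the filter level of 5.68. Its groups did not overlap, at 6.12 ± 0.23 and 5.14 ± 0.33 (SD, n = 3 each). The mucosal mean lay under the dim floor of 5.90, the 40th percentile of all single signals, and the difference of 0.98 became 0.22 with values raised to that floor. Without the filter Ivl was tested and did not pass (limma adjusted p = 0.301). Its low signal cannot be set against that of Loricrin, since probe sets differ in brightness.

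Scel encodes sciellin, an envelope precursor of stratified epithelia. It read 13.58, 13.67 and 13.88 against 13.33, 13.29 and 13.51, a narrow gap between groups. Its rise of 0.33 (SE 0.09) passed (limma adjusted p = 0.0232), but the call was lost in 6 of 17 alternative settings, with an adjusted p from 4.63e-04 to 0.128. It was lost with median centring and with no variance trend. It was also lost without peri-implant array 2 or 3 (limma adjusted p = 0.0581 and 0.0987) and without mucosal array 1 or 2 (limma adjusted p = 0.0684 and 0.0764). Krtdap, a secreted peptide of differentiating keratinocytes, read 16.10, 15.93 and 16.46 against 16.08, 16.66 and 16.65. The groups overlapped and the difference of -0.30 (SE 0.18) did not pass (limma adjusted p = 0.252). Its other probe set gave -0.22 (limma adjusted p = 0.417). Without mucosal array 1, the lowest of its group, the difference was -0.49 and passed (limma adjusted p = 0.0353). Krtdap passed in no other of the 17 alternatives. Its difference was -0.19 without peri-implant array 2 (limma adjusted p = 0.603) and -0.07 under quantile normalisation (limma adjusted p = 0.293).

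The pair of transglutaminases differed in their calls. Tgm3, a soluble enzyme that is activated by proteolysis, read 13.88, 13.85 and 13.70 in peri-implant tissue and 14.28, 14.43 and 14.45 in mucosa. It fell by 0.58 (SE 0.09), or 1.50-fold, with no overlap (limma adjusted p = 2.88e-04). Tgm1, the membrane-anchored transglutaminase that is mutated in lamellar ichthyosis, read 14.10, 14.06 and 14.08 against 13.92, 13.95 and 13.95. These were the tightest groups among the members, with an SD of 0.02 in each, and they did not overlap. The difference of 0.14 (SE 0.07) did not pass (limma adjusted p = 0.209). Its SE comes from the moderated fit, which draws each gene's variance towards that of others at like signal. Tgm1 passed under quantile normalisation, at 0.25 (limma adjusted p = 0.00300).

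**Figure D2:**
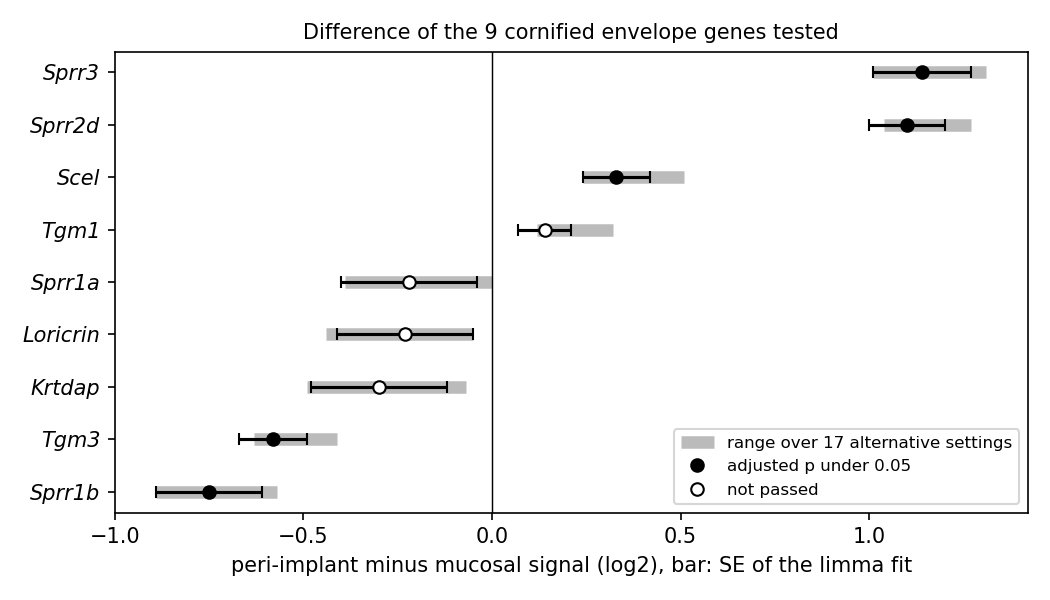
Difference of each tested gene as peri-implant minus mucosal log2 signal (x axis), with the SE of the limma fit and, in grey, the range over 17 alternative settings. The lowest values in that range are 1.01 for Sprr3 and 1.04 for Sprr2d, and those of Sprr1b and Tgm3 lie below 0 throughout, while the range of Sprr1a reaches 0.0019, under quantile normalisation.

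Several members sat at the top of the measured range. Sprr1a lay 0.08 to 0.15 below the highest signal of each array, Krtdap 0.10 to 0.21 and Loricrin 0.35 to 0.42, in both tissues. Sprr3 lay 0.39 to 0.50 below it in peri-implant tissue and 1.58 to 2.00 below in mucosa. Sprr1b came as close as 0.53 in mucosa and Sprr2d as close as 0.86 in peri-implant tissue. Whether signals level off there was not tested. If they do, levelling off would by itself shrink the differences of Sprr3, Sprr2d and Sprr1b. The overlap of Sprr1a, Loricrin and Krtdap is then not a measured equality. The sizes reported are still not minima, since Sprr1b ran from -0.89 to -0.57 over the 17 alternative settings. Scel, Tgm1 and Tgm3 lay at least 1.92 below the top on every array.

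Within each group, the brightest members moved from array to array with that highest signal. It was 16.26, 16.14 and 16.67 on the peri-implant arrays and 16.21, 16.78 and 16.75 on the mucosal ones. On the peri-implant arrays it was the signal of Stfa3, a gene of the lists below that was itself called higher there. In mucosa Stfa3 read 15.47, 15.85 and 15.72. On mucosal array 1 the highest signal deviated from its group mean by -0.37, Sprr1a by -0.36, Krtdap by -0.38 and Loricrin by -0.41. On peri-implant array 3 these deviations were 0.31 for the highest signal, 0.33 for Sprr1a and 0.30 for both Krtdap and Loricrin. What this shared movement adds to the differences between groups was not tested. Tgm1 moved by at most 0.03 on any array. The correlation of these within-group deviations with the array's highest signal over 6 arrays, given as a description, was 0.98 for Sprr1b, 0.89 for Sprr3 and 0.69 for Sprr2d. It was 0.65 for Tgm1, 0.58 for Scel, 0.08 for Tgm3 and -0.24 for Ivl.

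**Figure D3:**
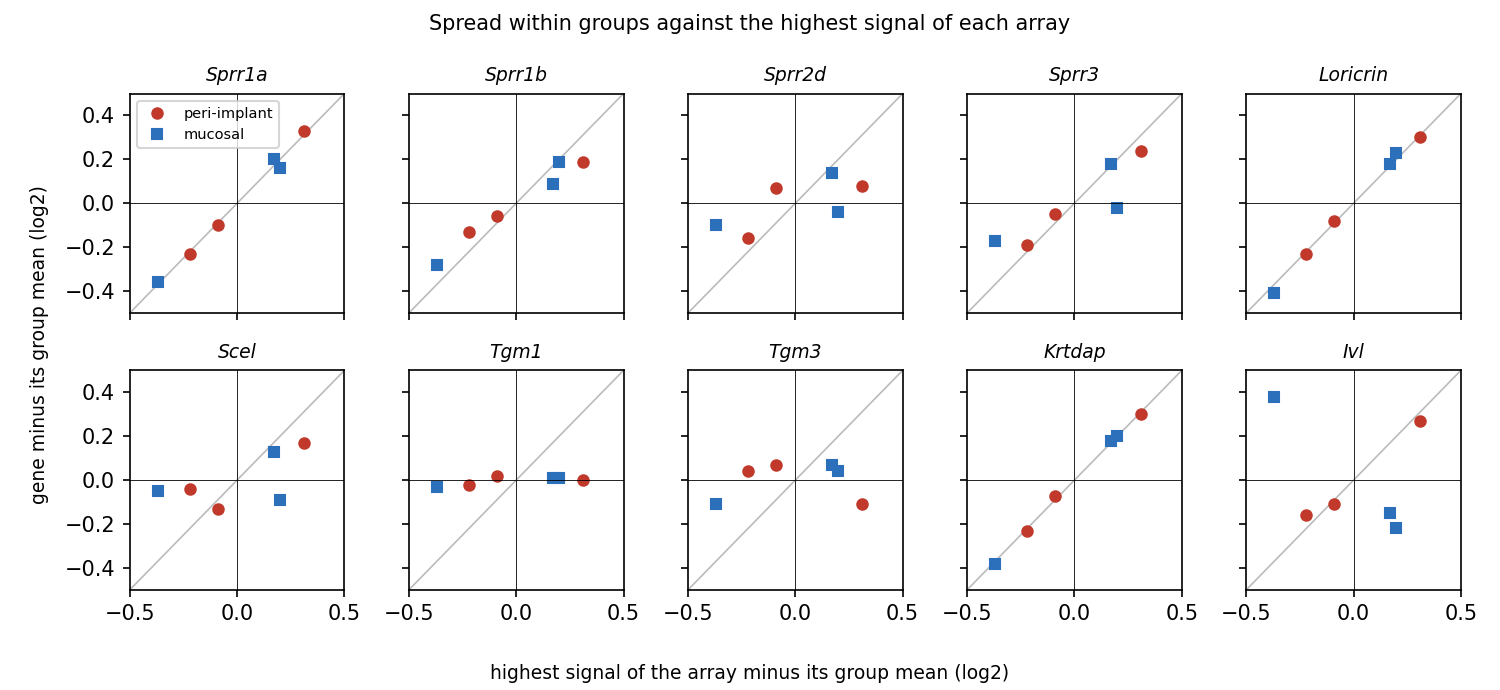
For each gene, its signal minus its group mean (y axis, log2) against the highest signal of the same array minus its group mean (x axis, log2), with 3 peri-implant arrays as red circles and 3 mucosal arrays as blue squares; the grey line marks equal deviations. Sprr1a, Loricrin and Krtdap lie on the line, and Tgm1 stays within 0.03 of 0.

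Over all 6 arrays Sprr2d and Sprr3 followed each other (Pearson r = 0.99, n = 6 arrays), and Tgm1 followed Sprr2d (r = 0.99) although its own difference did not pass. Tgm3 ran against both (r = -0.94 with each). Such values largely restate the split between the groups. Outside the members, the genes most like Sprr3 over the 6 arrays were Cib2 (r = 0.9991) and Atp1b3 (r = 0.9989), and those most like Sprr2d were Aldh3b1 and Cdkn2d (both 0.9984). For Sprr1b they were Ywhaz (r = 0.9934) and Serinc1 (r = 0.9925), for Scel Etv5 (r = 0.9983) and Spast (r = 0.9978), and for Tgm3 Nr4a2 (r = 0.9980) and Scg3 (r = 0.9974). Tgm1 was most like Gse1 (r = 0.9960) and Syk (r = 0.9946), and Ivl most like Ifi35 (r = 0.9925) and Zfc3h1 (r = 0.9923). Sprr1a and Loricrin were both most like Fabp5 (r = 0.9985 and 0.9966), a fatty acid binding protein of keratinocytes, followed by Krt6c (r = 0.9973) and Txn1 (r = 0.9938). Krtdap was most like Fam25a (r = 0.9963) and Krt17 (r = 0.9946). Fabp5, Krt6c, Txn1, Fam25a and Krt17 all had group means between 15.88 and 16.46. These, and Aldh3b1, Etv5, Spast and Gse1, did not pass the test. Aldh3b1 in mucosa (5.86) and Scg3 in peri-implant tissue (5.16) lay under the dim floor. For each member the genes named had the 2 highest r among the 10585 genes tested, members left out, over only 6 arrays.

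Other genes of terminal differentiation were read from 4 lists. Of 65 tested, 11 were higher and 19 lower, where 15.2% and 11% of all genes tested were, with a median of -0.05 beside 0.03 over all genes. In the list of further envelope precursors and associated proteins, 24 of 40 entries were measured: 2 higher, 9 lower and 13 not past the threshold, around a median of -0.27. Eppk1, the plakin epiplakin, fell by 2.35 (SE 0.07, limma adjusted p = 1.35e-10), from 13.53 to 11.17. Lce1f, a late cornified envelope protein, fell by 0.92, and Serpinb2, a serpin of the upper epithelium, by 0.88. Cdsn, the corneodesmosome protein corneodesmosin, fell by 0.82. The 2 higher genes of this list were Elf3 and Stfa3. Elf3, an epithelial ETS transcription factor and not itself an envelope protein, was higher by 2.02 (SE 0.09, limma adjusted p = 6.33e-09). Stfa3, a stefin-type protease inhibitor matched through the synonym Csta, was higher by 0.68. The call of Stfa3 was lost in 2 of 17 alternatives, with no variance trend (limma adjusted p = 0.0521) and averaged over probe sets (limma adjusted p = 0.195). Stfa3 read 16.26, 16.14 and 16.67 on peri-implant arrays 1 to 3, the highest signal of each. The limit given for the brightest members therefore holds for Stfa3 too. The scaffold genes Evpl (envoplakin) and Ppl (periplakin) did not pass, at 12.71 against 12.67 and 14.53 against 14.43, though Ppl passed as higher under quantile normalisation and pan-epithelial centring.

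In the list of other transglutaminases and genes of the calcium switch, which also holds Rarres1 and Rarres2, 3 of 9 tested were higher and 1 lower. Tgm2, the tissue transglutaminase that many cell types express, was higher by 1.02 (SE 0.09, limma adjusted p = 3.33e-06). Tgm5, an epidermal transglutaminase, fell by 0.42 (limma adjusted p = 0.00870), a call lost in 2 of 17 alternatives. Rarres2 (chemerin) and Prkch (protein kinase C eta, which acts in keratinocyte differentiation) were higher by 0.76 and 0.29, and the call of Prkch was lost in 9 of 17. That of Rarres2 was lost in 2, without peri-implant array 1 or 2 (limma adjusted p = 0.0673 and 0.0587). Of 7 lipid envelope genes 1 was higher, Smpd1 (acid sphingomyelinase) by 0.50, and 1 lower, Aloxe3 (an epidermal lipoxygenase), which fell by 0.43. Smpd1 lost its call with no variance trend (limma adjusted p = 0.0801) and Aloxe3 with pan-epithelial centring (limma adjusted p = 0.142).

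Among 25 tested regulators of terminal differentiation, 5 were higher and 8 lower. Fos, an AP-1 subunit, was higher by 2.39 (SE 0.11, limma adjusted p = 6.49e-09), at 11.03 against 8.64. Among other AP-1 genes Fosl1 fell by 1.72, Jund fell by 0.67 and Jun fell by 0.30, while Junb (difference 0.25, limma adjusted p = 0.076) and Fosl2 (0.12, limma adjusted p = 0.684) did not pass. Averaged over its probe sets, Fos differed by 0.78 and did not pass (limma adjusted p = 0.178), and Jund did not pass either (limma adjusted p = 0.214). Jun lost its call in 3 of 17 alternatives, and Junb passed as higher in 3, one of them without mucosal array 3 (0.34, limma adjusted p = 0.0138). Nfe2l2, which encodes NRF2, was higher by 0.64 and Grhl1, a grainyhead-like factor, by 0.38. Maf and Rora fell by 1.25 and 1.10, and Klf4, a barrier regulator, by 0.36. Averaged over probe sets, Rora (limma adjusted p = 0.247) and Grhl1 (0.20, limma adjusted p = 0.0763) did not pass, and Grhl1 was also lost with no variance trend (limma adjusted p = 0.0587). Klf4 lost its call in 3 of 17, among them without peri-implant array 2 (limma adjusted p = 0.0679).

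**Figure D4:**
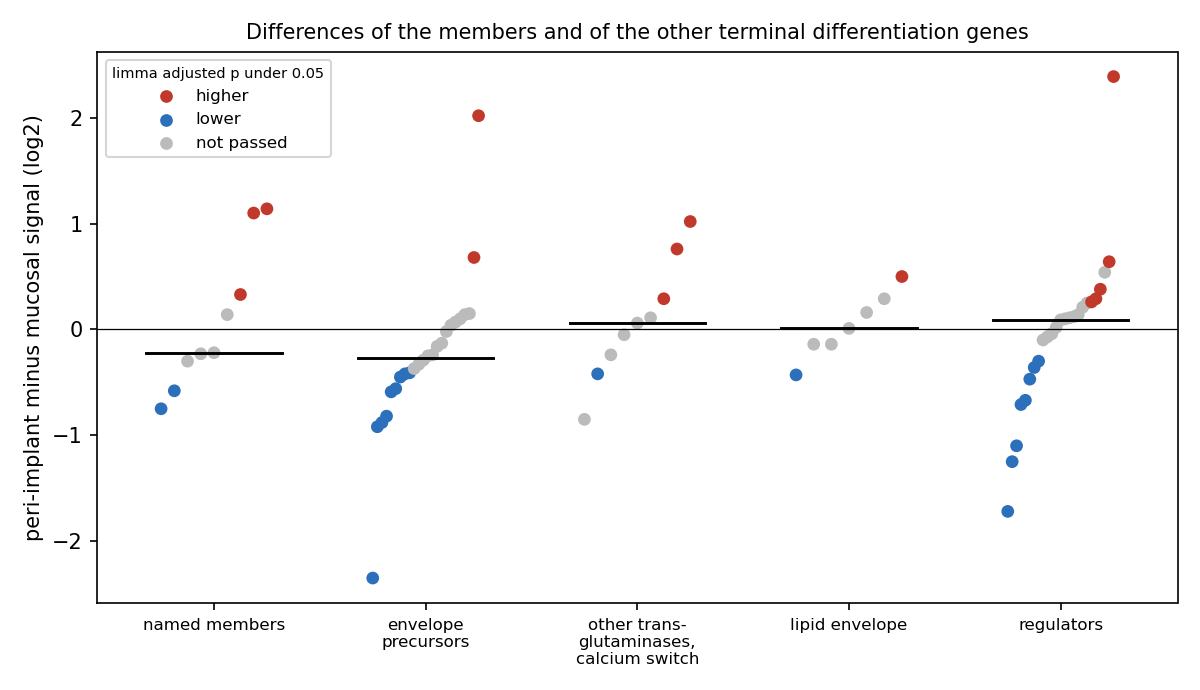
Peri-implant minus mucosal difference (y axis, log2) of the 9 tested members and of the genes in 4 lists of terminal differentiation genes (x axis), each point 1 gene, red for higher, blue for lower and grey for not passed, with the list's median as a line. Each list has genes on both sides of 0, with Fos and Elf3 the highest points and Eppk1 the lowest.

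Cell type markers differed between the tissues as well. Of 16 pan-epithelial markers 4 were higher and 8 lower, with a median of -0.38 and a summed signal of 18.30 to 18.63 on peri-implant and 18.54 to 18.93 on mucosal arrays. When each array was centred on these markers, a setting chosen after the data had been seen, the rise was 1.27 for Sprr2d and 1.31 for Sprr3, and Sprr1b and Tgm3 fell by 0.57 and 0.41. All 4 still passed, and Tgm1 passed as well, at 0.32 (limma adjusted p = 0.0157). That setting moved the median difference of all probe sets tested from 0.001 to 0.178, and the changes of the members are to be read against that shift. Of 11 tested leukocyte markers 10 were higher and 0 lower, with summed signals of 13.72 to 13.74 against 11.84 to 11.88 and no marker at 0. Of 10 fibroblast markers 2 were higher and 6 lower, at 15.30 to 15.36 against 15.97 to 16.10, and none was at 0. Of 10 markers of tongue papilla or hair-type keratinocytes, only 3 had a single-symbol probe set: Krt36, Krt25 and Tchh. These summed to 14.72 to 14.89 against 12.15 to 12.21, with 2 of 3 higher, Krt36 and Tchh, and none at 0. The part of leukocyte, fibroblast and papilla-type cells in the members' differences was not tested.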

How the data were processed

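Per the labels' protocols, total RNA was amplified and labelled with biotin using a kit for 3' expression arrays, and each of the 6 samples had its own array. The table the authors deposited holds log2 signals of 31099 probe sets, 57 of them array controls. That they were scaled per array was read from the values: once put on a linear scale, every one of the 6 arrays had the same mean of 500.2 after 2% was trimmed from both ends. Which software, background method and scaling made them, and the array's build, is not given in the sources used here. Precision is limited by the number of arrays.

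Signals were used as deposited. Probe sets with a mean over 6 arrays past the 40th percentile of those other than controls (5.68) were tested, 18625 in all, with limma 3.58.1 in R 4.3.3 (lmFit, eBayes with a variance trend, two-sided), with Benjamini-Hochberg adjustment over all of them. The fit was tested on simulated data with known changes. Noise there was drawn independently for each probe set and array, so that test does not cover the shared movement of the brightest members. Symbols came from the array's annotation table, with 20826 probe sets under 1 symbol, and each gene took its brightest probe set. Gene lists were matched by symbol or, for a few entries, by RefSeq synonym. The members and lists were chosen with earlier results of these data known. Genes named beyond the members were up to 3 higher and 3 lower with the smallest p per list, the 2 most correlated with each member, and a few markers. Cdsn, Evpl, Ppl, Jun, Junb, Fosl1, Fosl2, Klf4 and the genes of the closing section were added to these with their values already known. Upstream sequences are RefSeq's, build GRCr8.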

Additional observations from a re-analysis of the deposited data

How the results depend on the processing

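Differences of named genes and counts of members, pathway genes and markers called were computed again under 17 alternatives, 1 of them, centring on pan-epithelial markers, chosen after the data had been seen. Ivl could be fitted in 1 of them, and Aldh3b1, Etv5, Scg3, Kdr and Aqp5 in 16. Sprr2d and Sprr3 stayed higher and Sprr1b and Tgm3 lower, each past the threshold, in all 17. The members called were 2 to 4 higher and 2 to 3 lower. With no variance trend 5 other terminal differentiation genes were higher in place of 11, and with pan-epithelial centring 18, where 79% of all probe sets called were higher in place of 53.6%. Differences changed sign for Sprr1a (0.0019, quantile normalisation), for Txn1 (0.0222, quantile normalisation, and 0.0180, pan-epithelial centring), for Gse1 (-0.2735, mean of probe sets) and for Fosl2 (-0.0441, without mucosal array 3, the lowest of -0.0441 to 0.3004 leaving out 1 array at a time), and these did not pass as reported or with the sign changed. Leukocyte markers called higher were 9 to 11, pan-epithelial markers 2 to 5 higher and 4 to 9 lower, and fibroblast markers 0 to 2 higher and 5 to 6 lower. For Sprr1a, near the top of every array, quantile normalisation leaves little room for a difference. In that setting the differences of Loricrin and Krtdap were also small, at -0.05 and -0.07. The causes of the changes between settings were not tested.

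The labels do not say that samples with the same number came from the same rat, so the numbers were not taken as pairs. Deviations of samples that share a number correlated by 0.013, -0.079 and 0.027. With deviations taken from means of only 3 arrays, such values cannot decide whether the samples were paired. With the replicate block 3 members were higher and 2 lower, as without it, and 11 and 20 of the other genes in place of 11 and 19. Ivl was measured by 1 dim probe set, and Sprr1a, Loricrin and Krtdap lay near the highest signal of every array.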

Other observations

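Markers of 4 further cell types were also read. Of 4 tested neutrophil markers 3 were higher and 0 lower in peri-implant tissue, with a median of 2.08, and S100a8 and S100a9, which keratinocytes also express, were among them. Of 7 endothelial markers 1 was higher, the receptor gene Kdr, and 0 lower, and the call of Kdr was lost in 6 of 16 alternatives. Of 3 tested skeletal muscle markers 0 passed in either direction, and 5 of the 10 on the array were dim in both tissues. Of 3 tested gland markers Krt7 was higher and Aqp5 lower, and 6 of the 9 on the array were dim in both tissues.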
